A study of Rattus norvegicus with 8 samples.

Results

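The Zfp genes are named for zinc finger proteins, in which short stretches of the chain fold around a zinc ion. They were taken here as every symbol of the count table made of Zfp, a number and at most a letter and a further number, whose reads exceeded 20 in 2 or more libraries. Of 249 such symbols among 28909 in the table, 233 passed and 16 did not, and the 233 were read out of a test of 14309 genes. The 16 that did not pass include Zfp36l3, Zfp385c, Zfp488 and Zfp697, and the highest read number of any of them in a library was 23. By the second highest library, the members closest to the limit were Zfp951 with 21 reads, Zfp54 with 23 and Zfp473 with 26, and the closest symbols below it were Zfp697 with 17 and Zfp488 and Zfp663 with 13 each.

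The libraries were made from cultured hippocampal neurons of Sprague-Dawley rat embryos grown on porous filter inserts, where neurites grow through the pores and can be collected apart from the cell bodies. The antagonist of GABA-A receptors picrotoxin (PTX) was added to the medium for 48 h from day 18 to day 20 in vitro, and control cultures were mock-treated. The 4 groups were somata control, somata PTX, processes control and processes PTX, with 2 libraries each, and no genetic change was made in any of them. The question was which transcripts differ between the somatic and the process compartment and which respond to the drug in each.

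Most zinc finger proteins of this kind bind DNA through arrays of C2H2 fingers, and in the largest group a KRAB domain recruits Trim28 and the methyltransferase Setdb1 to silence transposable elements. Such genes often lie in clusters of related genes. The symbol also covers proteins that are not transcription factors, among them the CCCH proteins of the Zfp36 group, which bind AU-rich elements of mRNAs and recruit the CCR4-NOT deadenylase, the ubiquitin ligases Zfp91 and Zfp598, and the ribosome assembly factors Zfp593 and Zfp622. The name transcription factors therefore fits most members but not all, and the members are called Zfp genes here.

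Library totals ranged from 12290890 to 18455662 counts. Mitochondrially encoded genes took 22.6% to 26.7% of the counts in somata and 68.5% to 72.5% in processes, so that all other genes shared 9517542 to 11227599 counts in somata and 4702054 to 5491237 in processes. Levels below are CPM, which are counts divided by the library total after TMM scaling and multiplied by 1e6. They are not corrected for gene length. The median tested gene had 287 reads in a somata library and 101 in a process library, and the median Zfp gene had 194 and 55. Compartment differences are relative to the bulk of genes, because scaling by library size alone moves the median log2 fold change of all genes to -1.86 in control and -1.87 in PTX cultures. Among marker genes of other cells, Gfap was higher in processes by 2.60 on the log2 scale in control cultures, and the 8 astrocyte markers summed to 3170 to 4482 CPM in somata and 11416 to 14938 in processes. Gfap made up most of the process sum, at 67037 to 99640 reads a library, with S100b next at 11910 to 15084. Of those 8 markers, 4 passed the test as higher and 2 as lower in processes. The 8 oligodendrocyte lineage markers summed to 271 to 454 CPM in somata and 471 to 648 in processes, and Mbp was low but present at 55 to 679 reads. The 8 neuronal markers summed to 1734 to 2072 CPM in somata and 3901 to 5368 in processes, where Map2 was higher by 2.30. Map2 and Rbfox3 passed the test as higher in processes of control cultures and the other 6 as lower, with a list median of -0.65. The 5 microglia markers in the table did not pass the read filter, with at most 27 reads. The part of these other cells in any compartment difference given here was not tested, and a smaller share of a cell type cannot be told apart from less RNA per cell.

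Between the compartments of control cultures, a few abundant Zfp genes were strongly enriched in processes, while many members at low level were depleted there. With a mean over 20 CPM, 19 of 48 members were higher and 5 lower, against 2270 and 989 of 5105 tested genes. With a mean under 5 CPM, 1 of 87 members was higher and 22 lower, against 321 and 823 of 4101 tested genes. All tested genes thus split by level in the same direction. Zfp106, an RNA-binding protein needed by motor neurons, led the enriched members at 4.03-fold, and Zfp24, Zfp423 and Zfp91 followed at 3.18-fold, 3.16-fold and 3.05-fold. In total 92 members (39.5%) were called, against 47.7% of all tested genes. Of the 233, 33 members (14.2%) were higher in processes, against 25.8% of all tested genes, and 59 (25.3%) were lower, against 21.9% of all tested genes (edgeR quasi-likelihood test, Benjamini-Hochberg adjusted p under 0.05). The share of lower members is close to that of all genes and the share of higher members is below it. The median log2 fold change of the members was -0.25, against -0.05 for all tested genes, and 70.0% of the members had a negative value, against 52.9%.

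PTX cultures, which share no library with the control cultures, gave 96 called members (41.2%, all genes 49.8%), which were 31 higher members (13.3%, all genes 25.7%) and 65 lower members (27.9%, all genes 24%). The medians were -0.22 for the members and -0.05 for all genes. Of the members, 209 of 233 had the same sign in both treatments (Spearman's rho of 0.80 across the 233 members, which are not independent replicates). Among all tested genes 12575 of 14309 did, with a rho of 0.90. Of the higher members, 29 stood in both lists, or 87.9% of the control list and 93.5% of the PTX list (all genes 86.4% and 86.6%). Of the lower members, 41 stood in both lists, or 69.5% and 63.1% of them, below the 78.8% and 71.8% of all genes. A further 6 were higher and 42 lower in 1 treatment alone, and 115 were called in neither. The split depends on the scaling: with upper quartile factors 22 members were higher and 94 lower in control cultures (all genes 19.2% and 32.9%), and 24 and 97 in PTX cultures (all genes 20.3% and 33.3%). With library size alone 0 were higher and 226 lower in control cultures, and 0 and 225 in PTX cultures, where the median of all genes is shifted as given above.

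**Figure D1:**
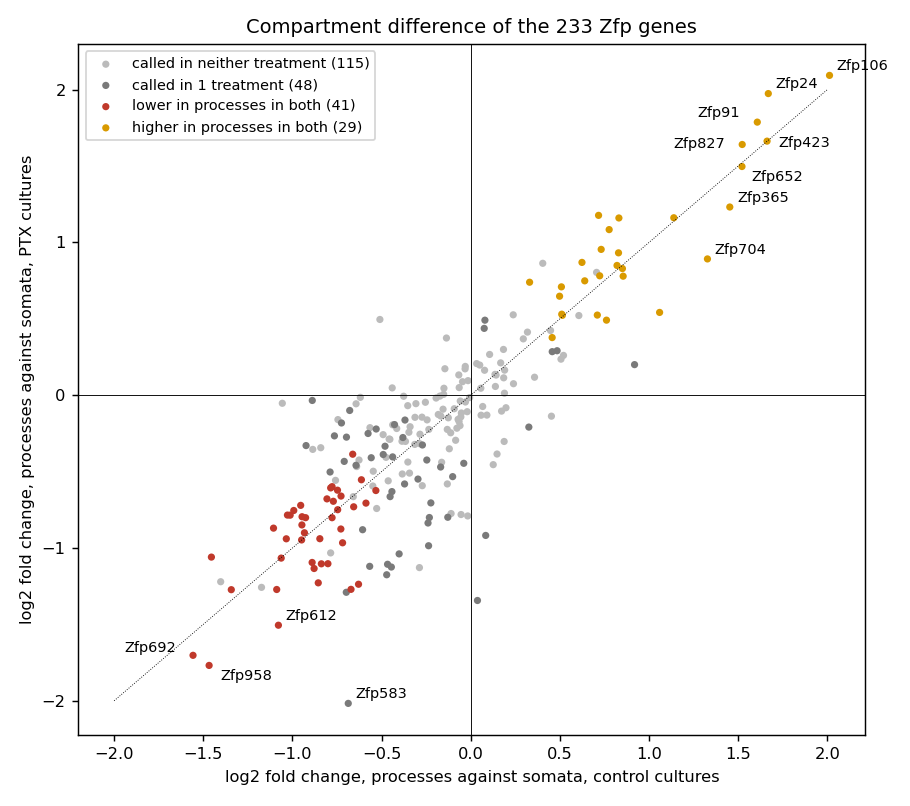
Log2 fold change of processes against somata for each of the 233 Zfp genes after TMM scaling, in control cultures on the x axis and in PTX cultures on the y axis, with the dotted line marking equal values. The 29 genes higher in processes in both treatments reach 2.01 in control and 2.09 in PTX cultures, and the 41 lower in both reach -1.56 and -1.77, with most points along the line. With library size alone as the scaling, the values of the enriched genes turn negative, apart from Zfp106 in both treatments and Zfp24 in PTX cultures.

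The values by library show the enriched members. These and the depleted members below were picked, in control or PTX cultures, among called members whose groups did not overlap. In the contrast of the choice, the call and the lack of overlap therefore follow from the rule. Zfp106 stood at 101 and 92.0 CPM in somata control, 102 and 105 in somata PTX, 371 and 408 in processes control and 412 and 471 in processes PTX. All 4 process libraries were above all 4 somata libraries, and the log2 fold change was 2.01 ± 0.12 (SE) in control cultures and 2.09 ± 0.12 in PTX cultures (adjusted p of 9.64e-07 and 7.56e-07). With the library size alone its values were 0.21 and 0.27.

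Zfp91, a ubiquitin ligase with zinc fingers, stood at 90.9 and 84.9 CPM in somata control, 91.7 and 92.2 in somata PTX, 246 and 289 in processes control and 299.7 and 335 in processes PTX. The compartments did not overlap, and the differences were 1.61 ± 0.12 and 1.79 ± 0.12 on the log2 scale (adjusted p of 2.94e-06 and 1.51e-06). Zfp24, a SCAN-domain factor needed for myelination, stood at 21.1, 22.1, 18 and 20.7 CPM in the somata libraries and at 66.9, 70.7, 69.4 and 82.2 in the process libraries, control first. Its log2 fold changes were 1.67 ± 0.12 and 1.97 ± 0.13. Zfp365, a centrosomal protein that binds Disc1, stood at 41.2, 39.5, 46.6 and 45.6 CPM in somata and at 121, 99.6, 106 and 111 in processes, and its log2 values were 1.45 ± 0.12 and 1.23 ± 0.12. For both genes every process library was above every somata library.

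Zfp827, whose human counterpart recruits the NuRD complex, stood at 12.7, 12.9, 10.6 and 13.2 CPM in somata and at 39.5, 34.2, 38.4 and 35.6 in processes, a log2 fold change of 1.52 ± 0.14 in control and 1.64 ± 0.14 in PTX cultures. Zfp652, a transcriptional repressor, had log2 fold changes of 1.52 ± 0.16 and 1.50 ± 0.16. Zfp704 had 1.33 ± 0.19 and 0.89 ± 0.20, and Zfp770 had 0.72 ± 0.17 and 1.18 ± 0.17. All 4 passed the test in both treatments.

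After TMM scaling, these values make the summed level of the family higher in processes. In reads, the members summed to 71766 to 83741 in a somata library and 31901 to 38276 in a process library. The higher level is therefore relative to the bulk of genes. All members together took 3011 to 3188 CPM in a somata library and 3663 to 3918 in a process library. The 5 members with the highest mean CPM, which are Zfp106, Zfp91, Zfp706, Zfp638 and Zfp365, summed to 357 to 376 CPM in somata and 926 to 1108 in processes. The other members summed to 2654 to 2824 CPM in somata and 2672 to 2900 in processes, which overlap. Zfp638, a nuclear protein that binds nucleic acids, was the exception among the 5: it stood at 76.8, 83.0, 72.6 and 77.7 CPM in somata and at 75.8, 99.8, 76.1 and 88.9 in processes, and its log2 values were 0.14 ± 0.14 in both treatments (adjusted p of 0.447 and 0.44).

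**Figure D2:**
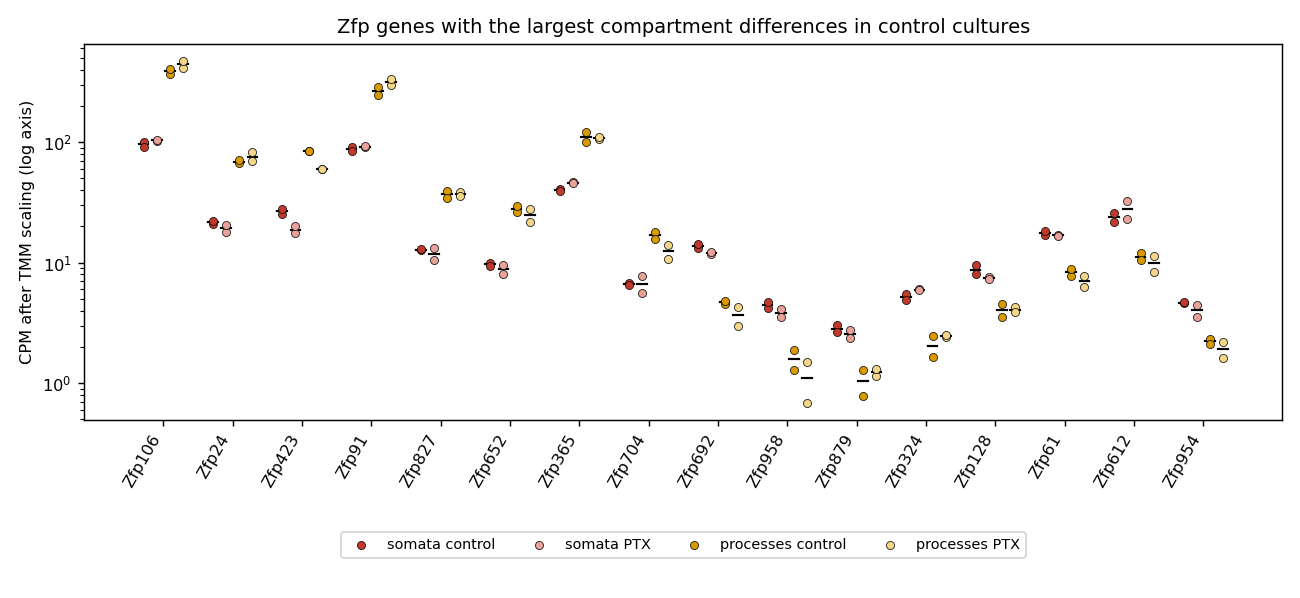
CPM after TMM scaling (log axis) of the 8 most process-enriched and the 8 most soma-enriched Zfp genes of control cultures, with a point per library, 2 per group, and a bar at the group mean. They were picked among genes called without overlap in control cultures. The 8 genes on the left lie higher in all process libraries, the 8 on the right lie lower, and Zfp958 and Zfp879 lie between 0.689 and 1.90 CPM in processes.

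Among the members depleted from processes, Zfp692 had the lowest log2 fold change of those called in control cultures. It stood at 13.3 and 14.3 CPM in somata control, 11.8 and 12.2 in somata PTX, 4.57 and 4.81 in processes control and 2.99 and 4.32 in processes PTX, a log2 difference of -1.56 ± 0.18 and -1.70 ± 0.19 (adjusted p of 5.48e-05 and 3.48e-05). Every process library was below every somata library, and the process levels rest on 26 to 43 reads a library. Zfp612 stood at 26.0, 21.6, 32.7 and 22.9 CPM in somata and at 12, 10.5, 11.4 and 8.35 in processes, and its log2 values were -1.08 ± 0.21 and -1.51 ± 0.21. Zfp61 stood at 17.1, 18.2, 17.0 and 16.7 CPM in somata and at 7.81, 8.81, 7.69 and 6.33 in processes, and its log2 values were -1.09 ± 0.15 and -1.27 ± 0.15.

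Other large negative values rest on few reads. Zfp958 had -1.47 ± 0.32 in control and -1.77 ± 0.34 in PTX cultures, with 6 to 17 reads in a process library. Zfp879 had -1.45 ± 0.34 and -1.06 ± 0.32 with 7 to 13 reads, and Zfp324 had -1.34 ± 0.25 and -1.27 ± 0.23 with 14 to 25 reads. Zfp128 had -1.11 ± 0.20 and -0.87 ± 0.20, and Zfp954 had -1.06 ± 0.26 and -1.07 ± 0.27. All 5 were picked among the members called without overlap in control cultures. They were also called without overlap in PTX cultures, where Zfp958 and Zfp324 were picked in the same way.

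In PTX cultures, 3 further members were among the 8 with the lowest values. Zfp583 had -2.02 ± 0.41 on 5 and 7 reads in the process PTX libraries, against -0.69 ± 0.35 (adjusted p of 0.126) in control cultures. Zfp605 had -1.34 ± 0.41, against 0.04 ± 0.33 (adjusted p of 0.937), and Zfp112 had -1.29 ± 0.30, against -0.70 ± 0.27 (adjusted p of 0.0527, 0.0291 with the replicate block and 0.0334 by the likelihood ratio test). The differences between the treatments did not pass the test for these 3 genes (adjusted p of 1 each in the interaction). The call of Zfp605 in PTX cultures was lost with DESeq2 (adjusted p of 0.0548). It was also lost without either processes PTX library or without the first somata PTX library, with values from -1.47 to -1.16 and adjusted p from 0.0682 to 0.092. That of Zfp112 was lost without the second processes PTX library (-0.99, adjusted p of 0.0515).

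Among members with roles in neural development or chromatin, 33 of 34 listed were tested. In control cultures 14 were higher and 6 lower (all genes 25.8% and 21.9%), with a median log2 fold change of 0.15, against -0.25 for all members and -0.05 for all genes. In PTX cultures 12 were higher and 5 lower (all genes 25.7% and 24%), with a median of 0.20. The list was written with earlier results of these data known, and it was not compared with genes of like level. Among all tested genes with a mean over 20 CPM, 2270 of 5105 were higher and 989 lower in control cultures, with a median of 0.24. With library size alone as the scaling the sign of its enriched members turns, as above.

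Zfp609, which acts with the cohesin loader Nipbl in cortical neurons, stood at 29.2, 29.6, 24.1 and 25.2 CPM in somata and at 51.7, 52.1, 44.1 and 44.7 in processes, and its log2 values were 0.82 ± 0.10 and 0.85 ± 0.10. Zfp592 and Zfp532, which form a complex with Zmynd8, had 0.72 ± 0.11 and 0.64 ± 0.11 in control cultures and 0.78 ± 0.11 and 0.75 ± 0.11 in PTX cultures. Their relative Zfp687 had -0.02 ± 0.14 and 0.10 ± 0.14 and was not called. Zfp335, part of an H3K4 methyltransferase complex, had 0.76 ± 0.13 and 0.49 ± 0.14. Zfp462, linked to neurodevelopmental disorders in people, stood at 68.1, 66.2, 50.7 and 62.8 CPM in somata and at 80.6, 88.3, 90.6 and 98.8 in processes, and its log2 values were 0.33 ± 0.12 (adjusted p of 0.0479) and 0.74 ± 0.12 (adjusted p of 0.000636). Zfp521, a regulator of early neural differentiation and a paralog of Zfp423, had 0.46 ± 0.13 and 0.38 ± 0.13.

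The depleted members of the list include Zfp207, which binds microtubules and the spindle checkpoint protein Bub3. It stood at 46.8, 49.6, 44.4 and 47.3 CPM in somata and at 21.6, 26.2, 23.5 and 29.6 in processes, without overlap, and had log2 fold changes of -1.01 ± 0.14 and -0.79 ± 0.14. Zfp281, a regulator of pluripotency, had -0.72 ± 0.15 and -0.97 ± 0.15, and Zfp711, which recruits the histone demethylase Phf8, had -0.77 ± 0.18 and -0.69 ± 0.18.

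The RNA and ribosome binding members did not share a direction. Of 19 listed, 16 were tested, and 4 were higher and 1 lower in processes of control cultures (all genes 25.8% and 21.9%), with a median of -0.03. In PTX cultures 4 were higher and 3 lower (all genes 25.7% and 24%), with a median of -0.07. Zfp106, described above, and Zfp706 were higher in both. Zfp385a, which carries Itpr1 mRNA into dendrites of Purkinje cells, stood at 5.10, 5.84, 4.49 and 4.61 CPM in somata and at 11.2, 8.57, 8.04 and 8.14 in processes. Its compartments did not overlap, and its log2 differences were 0.85 ± 0.18 and 0.83 ± 0.19 (adjusted p of 0.00315 and 0.00399).

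Its relatives differed. Zfp385b had -0.13 ± 0.28 in control and -0.80 ± 0.29 in PTX cultures (adjusted p of 0.724 and 0.0393), where its call was lost with DESeq2 (adjusted p of 0.0583). It was also lost without any process library or without the first somata PTX library, with values from -0.83 to -0.40 and adjusted p from 0.0533 to 0.326. Zfp385d had -0.46 ± 0.40 and -0.56 ± 0.39 and was not called. The ribosome assembly factor Zfp593 had -0.68 ± 0.24 (adjusted p of 0.0376) and -0.10 ± 0.22, and its relative in the same pathway, Zfp622, had -0.23 ± 0.29 and -0.80 ± 0.30 (adjusted p of 0.047). Zfp346, which binds double-stranded RNA, had -0.30 ± 0.16 and -0.55 ± 0.16 (adjusted p of 0.0153). Zfp330 had 0.33 ± 0.12 (adjusted p of 0.043) and -0.21 ± 0.12. The calls of Zfp593, Zfp622 and Zfp330 were lost with DESeq2 (adjusted p of 0.111, 0.179 and 0.129). For Zfp622 the call was also lost with no read filter (0.058) and with the 4 compared libraries alone (0.0699). That of Zfp593 was also lost without any of the 4 control libraries or the first somata PTX library, with values from -0.72 to -0.64 and adjusted p from 0.0502 to 0.138. That of Zfp622 was lost without any somata library or either processes PTX library, with values from -1.0 to -0.61 and adjusted p from 0.0631 to 0.234. That of Zfp330 was lost with upper quartile scaling (0.12, adjusted p of 0.4), with at least 10 reads asked of every library (0.0906), with no read filter (0.134) and with the 4 compared libraries alone (0.0774). It was also lost without any somata library or either processes control library, with values from 0.28 to 0.37 and adjusted p from 0.0671 to 0.198. That of Zfp346 was lost without the second processes PTX library (-0.33, adjusted p of 0.149) or the first somata PTX library (-0.51, adjusted p of 0.0739). Zfp598, the ligase that marks collided ribosomes, had 0.18 ± 0.13 and 0.11 ± 0.13, and Zfp326 and Zfp830, which act in splicing, had -0.16 ± 0.22 and -0.25 ± 0.23 in control cultures. None of these last 3 was called in any comparison.

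PTX moved few Zfp genes past the threshold. In somata 2 of 233 members (0.858%) were called, both lower, against 3.59% of all tested genes (2.09% higher and 1.5% lower), and 18 members (7.73%) had an unadjusted p under 0.05, against 15.6% of all genes. In processes 4 members (1.72%) were called, 1 higher and 3 lower, against 3.74% of all tested genes (1.64% higher and 2.1% lower), and 28 (12%) had an unadjusted p under 0.05, against 16.6%. The medians were -0.08 in both compartments, against -0.01 for all genes, and 68.2% of the members had a negative value in somata, against 51.1% of all genes, and 61.8% in processes, against 51.6%. Without the second processes control library the median of the members in processes was -0.02, without the first -0.13, and without the first processes PTX library -0.05. The somata and process libraries are separate, and 136 of 233 members had the same sign in both (Spearman's rho of 0.22 across members), against 9623 of 14309 genes (0.51). With library size alone as the scaling, the calls of Zfp423 in both compartments, Zfp706, Zfp142 and Zfp771 were lost with their sign kept (adjusted p from 0.0642 to 0.159). With the 4 compared libraries alone, the calls other than that of Zfp706 were lost (adjusted p from 0.0509 to 0.1).

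Cell type markers also moved with PTX. Of the 8 neuronal markers, Gad1 and Gad2, the enzymes that make GABA, were higher in somata at 0.82 and 0.92 on the log2 scale, and Neurod6 and Rbfox3 were lower at -1.64 and -0.67. In processes Gad2 was higher at 0.92 and Neurod6 lower at -1.34. The neuronal markers summed to 1795 to 2072 CPM in somata control and 1734 to 1987 in somata PTX, which overlap. In processes they summed to 5082 to 5368 CPM in control and 3901 to 4603 in PTX libraries, which do not. Map2 made up most of the process sum, at 33505 to 42089 reads a library, against at most 1641 for any other neuronal marker. Map2 itself was not called there (-0.34, adjusted p of 0.24). Of the 8 astrocyte markers Gja1 was lower in somata at -0.61. In processes the lowest adjusted p of the 8 was 0.0907, and the list summed to 13327 to 14938 CPM in control and 11416 to 12684 in PTX libraries. The lowest adjusted p of the 8 oligodendrocyte lineage markers was 0.606 in somata and 0.309 in processes. The part of these cells in the PTX values of the Zfp genes was not tested.

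With the replicate number as a block, which pairs libraries of the same number, 11 members were called in somata (4.72%, all genes 14%), 1 higher and 10 lower, and 10 in processes (4.29%, all genes 11.2%), 3 higher and 7 lower. The calls without the block were among them. Members called with the block alone include Zfp608, the relative of Zfp609, at -0.29 ± 0.11 in somata and -0.47 ± 0.12 in processes (adjusted p of 0.0354 and 0.00841 with the block, 0.2 and 0.062 without), and Zfp180, at 0.52 ± 0.15 in processes (0.00167 with, 0.0909 without). Zfp821 had -0.59 ± 0.15 in somata (0.00252 with, 0.0607 without) and Zfp330 had 0.37 ± 0.11 there (0.0171 with, 0.112 without).

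Zfp423 was called in both compartments. It encodes a protein with many fingers that binds Ebf and Smad factors and is needed for the cerebellum to form. It stood at 25.4 and 27.9 CPM in somata control, 17.7 and 20.0 in somata PTX, 84.0 and 84.8 in processes control and 59.6 and 59.6 in processes PTX. The treated libraries were below the control libraries in each compartment, and the process libraries were above all somata libraries under both treatments. The PTX log2 fold change was -0.50 ± 0.11 in somata and -0.50 ± 0.11 in processes, a level of 0.706 of the control in each (adjusted p of 0.0323 and 0.0324). The compartment difference was 1.66 ± 0.11 in both treatments. The interaction was 0.00 ± 0.14 (unadjusted p of 0.995). Leaving out any of the 4 somata libraries ended the somata call, with values from -0.60 to -0.42 and adjusted p from 0.082 to 0.29. Leaving out any of the 4 process libraries or either somata control library ended the process call, with values from -0.51 to -0.49 and adjusted p from 0.0524 to 0.134. The sign was negative in each of these fits. With the replicate block the adjusted p was 0.000752 in somata and 0.000774 in processes.

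Zfp706, a small zinc finger protein that embryonic stem cells need to leave self-renewal, was lower in somata with PTX. It stood at 66.1 and 64.7 CPM in somata control, 44.2 and 45.4 in somata PTX, 112 and 121 in processes control and 98.3 and 102 in processes PTX. The treated libraries were below the controls in both compartments. The log2 fold change was -0.55 ± 0.10 in somata (adjusted p of 0.0137) and -0.22 ± 0.10 in processes (adjusted p of 0.315). The difference between these effects was 0.33 ± 0.14 (unadjusted p of 0.0412, adjusted p of 1). Its compartment difference was 0.83 ± 0.10 in control and 1.16 ± 0.10 in PTX cultures. Without any of the 4 somata libraries the somata call was lost, with values from -0.57 to -0.53 and adjusted p from 0.0852 to 0.136.

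Zfp36l1 was the member called higher with PTX in processes. It is a CCCH protein that marks mRNAs with AU-rich elements for decay. It stood at 21.7 and 22.3 CPM in somata control, 28.5 and 25.4 in somata PTX, 24.0 and 22.4 in processes control and 39.2 and 34.0 in processes PTX. Treated libraries were above the controls in both compartments, by 0.65 ± 0.13 in processes (adjusted p of 0.0206) and by 0.29 ± 0.12 in somata (adjusted p of 0.244, and 0.054 with the replicate block). In processes the call was lost without either control library or without the first PTX library, with values from 0.55 to 0.70 and adjusted p from 0.0834 to 0.121, and was kept without the second PTX library. The compartment difference was 0.08 ± 0.13 in control cultures and 0.44 ± 0.12 in PTX cultures (adjusted p of 0.645 and 0.0111). The latter call was lost with upper quartile scaling (0.26, adjusted p of 0.0859) and without the first processes PTX library (0.33, adjusted p of 0.0802) or the second somata PTX library (0.37, adjusted p of 0.083).

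The other CCCH members showed no called PTX effect. Zfp36l2 had 0.04 ± 0.21 in somata and -0.22 ± 0.25 in processes, at 3.45 to 6.02 CPM. Its compartment difference in control cultures was 0.52 ± 0.23 (adjusted p of 0.0833, and 0.0499 with the replicate block). Zfp36, the inducible founder of the group, had -0.11 ± 0.49 and 0.06 ± 0.71 on 2 to 46 reads a library, so that a change of the size seen for Zfp36l1 was not detectable at this depth. Zfp36l3 had no read.

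Zfp142 and Zfp771 were lower with PTX in processes. Zfp142, a large protein with many fingers whose human counterpart is linked to a neurodevelopmental disorder, stood at 31.7, 32.2, 29.4 and 24.6 CPM in somata, at 27.7 and 31.9 in processes control and at 19.2 and 18.2 in processes PTX. The log2 fold change was -0.67 ± 0.14 in processes (adjusted p of 0.027) and -0.24 ± 0.12 in somata (adjusted p of 0.395). The groups did not overlap in either compartment. In processes, without any of the 4 process libraries the call was lost, with values from -0.77 to -0.57 and adjusted p from 0.0707 to 0.135. Zfp771 stood at 9.18, 8.58, 7.80 and 7.62 CPM in somata, at 20.1 and 16.9 in processes control and at 10.6 and 11.9 in processes PTX, with a PTX effect of -0.72 ± 0.15 in processes (adjusted p of 0.0298) and -0.20 ± 0.14 in somata (adjusted p of 0.594). Its call was lost with DESeq2 (adjusted p of 0.0502), without the first processes control library or either processes PTX library (values from -0.81 to -0.59, adjusted p from 0.0936 to 0.196) and without either somata control library (-0.72, adjusted p of 0.0509 and 0.0517).

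**Figure D3:**
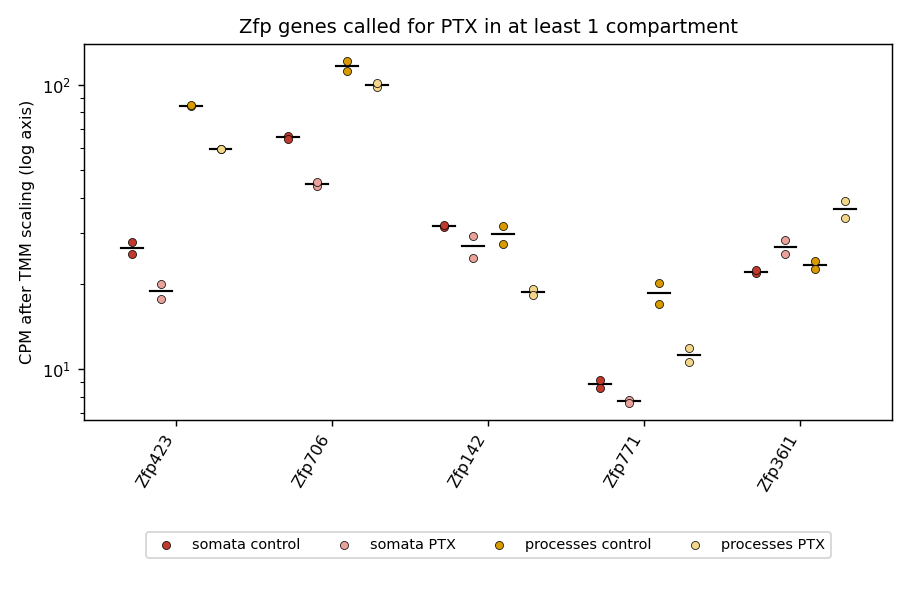
CPM after TMM scaling (log axis) of the 5 Zfp genes called for PTX in at least 1 compartment, with a point per library, 2 per group, and a bar at the group mean. Zfp423 and Zfp706 lie lower with PTX in both compartments, and Zfp36l1 lies higher in both.

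**Figure D4:**
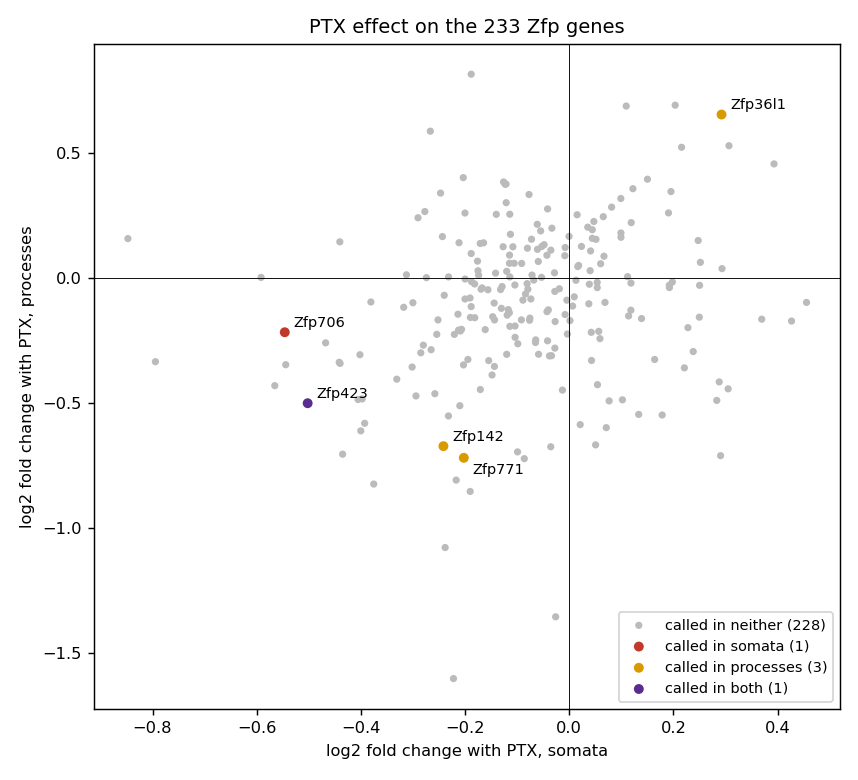
Log2 fold change with PTX of the 233 Zfp genes in somata on the x axis and in processes on the y axis, with called genes coloured and named. The 5 called genes have the same sign in both compartments, and 228 genes are called in neither.

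In the interaction, the PTX response of processes less that of somata, 0 members were called and 0 of all tested genes (0%) in the quasi-likelihood test. At an unadjusted p under 0.05 there were 14 members (6.01%, all genes 4%). There were 12 by the likelihood ratio test, 2 by DESeq2 and 25 with the replicate block, and these 3 fits also called 0 members at an adjusted p under 0.05. The 4% belongs to the quasi-likelihood test alone. The shares of all genes in these 3 fits are not given here, so their counts cannot be read against it. The median interaction of the members was 0.02. The smallest p was that of Zfp330, at 17.4, 18.7, 24.3 and 22.4 CPM in somata and 22.0, 23.4, 20.3 and 20.1 in processes, with an interaction of -0.53 ± 0.17 (unadjusted p of 0.00898). Zfp667 had -0.75 ± 0.26 (0.0167), Zfp605 had -1.38 ± 0.53 (0.0249), Zfp511 had -1.0 ± 0.40 (0.0306) and Zfp771 had -0.52 ± 0.21 (0.0318). The adjusted p was 1 for each. In simulated data the interaction test recovered 38.5% of 200 genes changed by 1 on the log2 scale, with 9 false calls among 14309 genes. Those 200 were drawn from all tested genes, with a median of 101 reads in a process library, against 55 for Zfp genes. The largest called PTX value of a member was -0.72, and recovery for Zfp genes alone was not simulated.

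Promoter sequences of the genes called for PTX are shown because the response is a change in transcript level with treatment. Those of Zfp36l1, Zfp142 and Zfp771 are RefSeq sequences of build GRCr8, and they run from 250 bases before to 50 after the annotated start. Zfp423 and Zfp706 are named without one. Capitals mark matches, on either strand, to the TATA box (TATAAA), the CCAAT box (letters as named), the GC box (GGGCGG) and the E-box (CACGTG). The cyclic AMP response element (TGACGTCA), its half-site (TGACG) and the motif of Egr factors (GCGTGGGCG) were also searched, and their letters are in none of the 3 windows.
Zfp36l1, chr6:104668641-104668940, minus strand: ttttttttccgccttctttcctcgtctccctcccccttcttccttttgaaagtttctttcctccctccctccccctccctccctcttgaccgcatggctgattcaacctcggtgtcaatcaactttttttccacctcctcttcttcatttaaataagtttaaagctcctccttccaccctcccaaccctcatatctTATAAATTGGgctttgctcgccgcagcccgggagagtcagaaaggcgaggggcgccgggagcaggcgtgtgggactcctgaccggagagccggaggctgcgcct
Zfp142, chr9:83613847-83614146, minus strand: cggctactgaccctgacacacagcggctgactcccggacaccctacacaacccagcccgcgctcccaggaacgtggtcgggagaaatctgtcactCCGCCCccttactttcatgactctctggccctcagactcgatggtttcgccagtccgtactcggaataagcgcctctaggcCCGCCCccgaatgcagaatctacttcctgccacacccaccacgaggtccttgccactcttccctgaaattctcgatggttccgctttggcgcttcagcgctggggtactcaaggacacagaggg
Zfp771, chr1:191294280-191294579, plus strand: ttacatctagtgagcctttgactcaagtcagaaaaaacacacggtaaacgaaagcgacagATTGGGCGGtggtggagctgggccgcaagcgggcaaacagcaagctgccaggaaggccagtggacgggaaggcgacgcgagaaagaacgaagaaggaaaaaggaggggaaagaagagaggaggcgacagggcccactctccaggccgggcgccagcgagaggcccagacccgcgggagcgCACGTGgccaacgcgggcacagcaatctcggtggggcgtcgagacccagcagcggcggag

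The TATA box of Zfp36l1 begins at position -54 from the start and is followed at -49 by CCAAT on the other strand, with which it shares a base. Zfp142 has the GC box on the other strand at -155 and -74. Zfp771 has CCAAT on the other strand at -190, overlapping a GC box at -187, and the E-box at -10. Among the 188 members with a promoter in the reference, the TATA box was in 8.51%, CCAAT in 41%, the GC box in 44.7% and the E-box in 6.91%. Among 9922 tested genes the shares were 6.62%, 37.4%, 62.7% and 9.23%, and among all 33469 promoters 14.2%, 37.5%, 33.1% and 6.42%. The half-site TGACG was in 28.2% of the members' promoters and 31.6% of those of tested genes. The median GC content was 57.2% for members and 61.3% for tested genes.

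The members were also placed on the genome. In the RefSeq annotation of GRCr8, 227 members were placed, 226 by symbol and 1 by a synonym. Of these, 96 (42.3%) lie next to another gene named Zfp, Znf, Zscan or Zkscan among protein-coding genes, and chromosome 1 holds 53 members, 36 of them beside such a gene. Of the 29 members higher in processes in both treatments 4 (13.8%) lie beside another zinc finger gene, and of 37 placed members lower in both 22 (59.5%) do. Members beside another zinc finger gene had a median log2 fold change of -0.45 in control cultures, with 5 higher and 32 lower of 96 (all genes 25.8% and 21.9%), and -0.33 in PTX cultures, with 4 and 32 (all genes 25.7% and 24%). Members without such a neighbour had medians of -0.08 and -0.15, with 28 higher and 23 lower of 131 in control cultures and 27 and 29 in PTX cultures.

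Read level moved with this difference. The members higher in processes in both treatments had a median of 28.7 CPM, those lower in both 6.09, all members 7.01 and all tested genes 11.8. Among all tested genes with a mean under 5 CPM the median compartment difference in control cultures was -0.37, between 5 and 20 CPM it was -0.09, and over 20 CPM it was 0.24. For members beside another zinc finger gene the medians in these classes were -0.64, -0.43 and -0.06, and for the other members -0.39, -0.12 and 0.33. In PTX cultures they were -0.47, -0.41 and -0.02 beside a zinc finger gene and -0.50, -0.14 and 0.38 otherwise, so that below 5 CPM the order of the 2 kinds turned. Genes of a cluster can share reads where their sequences are alike. How alike they are was not examined, and how such reads were assigned is a limit on members in clusters. The part of read assignment in the difference was not tested.

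**Figure D5:**
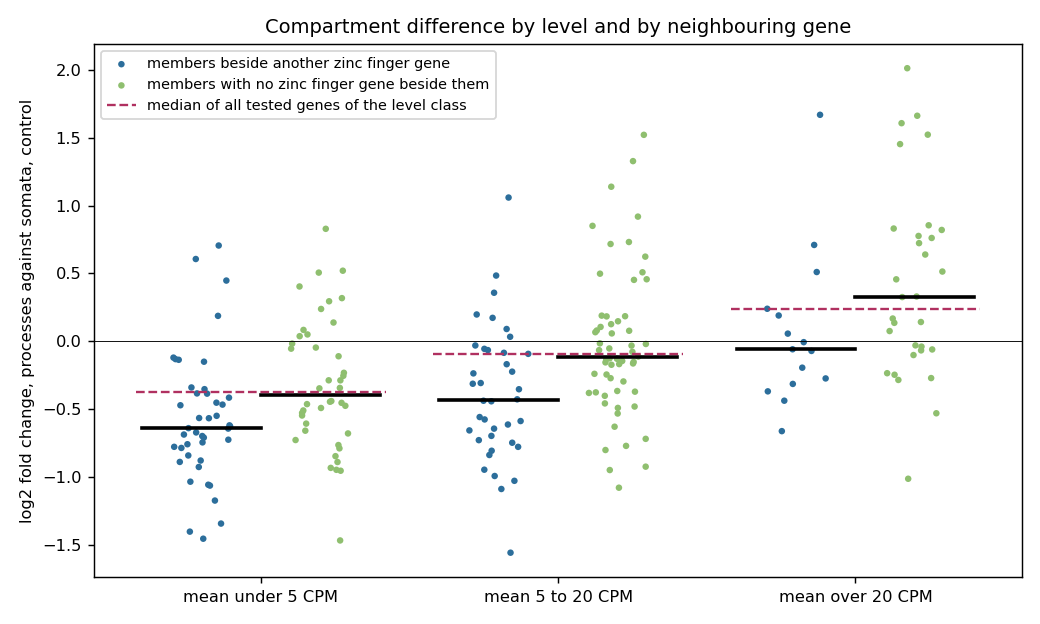
Log2 fold change of processes against somata in control cultures for each placed Zfp gene, after TMM scaling, by class of mean CPM and by whether a neighbouring gene is a zinc finger gene, with black bars at the medians and dashed lines at the median of all tested genes of the class. Members beside a zinc finger gene lie lower in each class, at -0.64, -0.43 and -0.06 against -0.39, -0.12 and 0.33. In PTX cultures this order does not hold under 5 CPM.

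The genes that work with these proteins were described from lists. Of 25 KRAB corepressor genes 24 were tested, and 9 were higher and 3 lower in processes of control cultures (all genes 25.8% and 21.9%), with a median of 0.13 against -0.05 for all genes. In PTX cultures 9 were higher and 4 lower (all genes 25.7% and 24%), with a median of 0.17 against -0.05. Trim28, the scaffold that KRAB domains bind, had a mean of 94.1 CPM in somata control and 77.7 in processes control, a log2 fold change of -0.28 ± 0.11 (adjusted p of 0.0638), and Setdb1 had -0.18 ± 0.12. In PTX cultures Trim28 was lower in processes at -0.31 ± 0.11 (adjusted p of 0.0424), and Setdb1 had 0.02 ± 0.12. Cbx5, the heterochromatin protein that reads H3K9 methylation, was higher in processes by 1.68 ± 0.12 in control and 1.76 ± 0.12 in PTX cultures. The remodeller Chd3 was higher by 1.83 ± 0.16 and 1.61 ± 0.16. Of 21 CCR4-NOT and decapping genes 20 were tested, with 2 higher and 7 lower in control cultures and a median of -0.15. In PTX cultures 2 were higher and 6 lower, with a median of -0.17, and the shares and medians of all genes are those just given. The higher ones in both treatments were Pabpc1, which coats poly(A) tails, and the deadenylase Cnot6. Pabpc1 had 2.24 ± 0.11 in control and 2.29 ± 0.11 in PTX cultures, and Cnot6 had 1.25 ± 0.18 and 1.34 ± 0.18. The scaffold Cnot1 was lower in control cultures at -0.32 ± 0.10 and not called in PTX cultures (-0.18 ± 0.10, adjusted p of 0.166). In the quasi-likelihood test 0 genes of either list were called for PTX (all genes 3.59% in somata and 3.74% in processes). At an unadjusted p under 0.05 there were 2 of 24 KRAB corepressor genes in somata and 3 in processes, and 2 and 1 of 20 of the CCR4-NOT list (all genes 15.6% and 16.6%). DESeq2 also called 0, and the likelihood ratio test called 1 CCR4-NOT gene in processes. The replicate block called 2 and 3 KRAB corepressor genes and 1 and 1 CCR4-NOT genes (all genes 14% and 11.2%).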

How the data were processed

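RNA was depleted of ribosomal RNA and sequenced from 2 libraries for each of the 4 groups, grouped by the sample titles. After trimming by Trimmomatic, the authors mapped the reads to build Rnor 6.0, counted them with featureCounts and summed counts by symbol. For the aligner the methods name Subread and the submitters' processing notes STAR, and the notes also name edgeR. The deposited counts are whole numbers without normalization. The authors also deposited tables of their own PTX comparisons, with log2 fold changes, log2 CPM, a likelihood ratio score and p-values, which were not used. Symbols shared by copies, near-identical copies and overlapping genes are of uncertain origin.

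Genes needed over 20 reads in 2 or more libraries. The quasi-likelihood test of edgeR 4.0.16 (R 4.3.3, limma 3.58.1) was fitted to all 8 libraries with TMM factors and 1 coefficient per group, with Benjamini-Hochberg adjustment over 14309 genes and a threshold of 0.05. The SE of each log2 fold change was taken from it and the root of its F statistic. In simulated data 200 genes drawn from all those tested were changed by 1 on the log2 scale. The PTX test in processes recovered 59% of them with 5 false calls among 14309 genes. Also run were DESeq2 1.42.0, the likelihood ratio test, other scalings and filters, the 4 compared libraries alone, a replicate block and leaving out each library.

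The numbers of the replicates were taken as pairs in the replicate block alone, and the main fit holds no pairing. The block was run because the differences between replicates 2 and 1 correlated between all 6 pairs of groups (r from 0.274 to 0.54 across genes). The labels give the numbers, and what they mark is not given in the sources used here. The block lowered the common coefficient of variation from 11.5% to 6.77%. The methods speak of 2 samples per condition, and their statistics of independent experiments in general. Whether same-group libraries come from separate cultures is not stated for this assay, and p-values measure the spread between these libraries.

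Members and lists were chosen with earlier results of these data known. Named are, in each contrast, the 8 called members with the largest and the 8 with the smallest values without overlap between groups, the 5 with the smallest interaction p, the 5 with the highest mean CPM, the RNA and ribosome binding and CCCH lists, and members called for PTX in both compartments. Others were named as examples of the lists, neighbours in role or block calls after their values were seen. A planned list of members with a KRAB domain was not made, since no protein table was used here.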

Additional observations from a re-analysis of the deposited data

How the results depend on the processing

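The counts of called members moved with the scaling and with single libraries and, for PTX, with the replicate block. These settings act on all tested genes. Shares of all genes are given only for upper quartile scaling and the replicate block, so the other moves cannot be called particular to the Zfp genes. With library size alone, PTX in somata gave 0 lower members, PTX in processes 2 higher and 0 lower, and the compartment contrast 0 higher and 226 lower in control and 0 higher and 225 lower in PTX cultures. Upper quartile scaling gave 94 lower members in control cultures (40.3%, all genes 32.9%), and DESeq2 gave 38. For PTX in processes the likelihood ratio test gave 2 higher and 6 lower members, no filter 2 and 5, and the 4 compared libraries alone 0 and 0. With the replicate block PTX gave 1 higher and 10 lower members in somata and 3 and 7 in processes. These are 4.72% and 4.29% of the members, against 14% and 11.2% of all genes. The block changed no count of the compartment contrasts by over 1.5 times. Leaving out each library in turn gave 0 to 2 lower members for PTX in somata, 0 to 1 higher and 0 to 3 lower for PTX in processes, 33 to 63 lower in control and 37 to 64 lower in PTX cultures. The low values were 33 without the first processes control library, 38 without the first somata control library, 37 without the first somata PTX library and 43 without the first processes PTX library.

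Signs turned with library size alone, as its construction shifts all genes. In control cultures this gave Zfp24 -0.14, Zfp330 -1.48, Zfp365 -0.36, Zfp36l1 -1.74, Zfp36l2 -1.29, Zfp385a -0.97, Zfp423 -0.15, Zfp598 -1.62, Zfp638 -1.66, Zfp652 -0.28, Zfp704 -0.49, Zfp706 -0.97, Zfp827 -0.29 and Zfp91 -0.19. In PTX cultures it gave Zfp365 -0.59, Zfp36l1 -1.39, Zfp36l2 -1.56, Zfp385a -1.0, Zfp423 -0.16, Zfp598 -1.71, Zfp638 -1.69, Zfp652 -0.32, Zfp706 -0.67, Zfp770 -0.64, Zfp827 -0.19 and Zfp91 -0.036. No named member changed sign under another alternative in a comparison where it was called. Uncalled values near 0 did: without single libraries Zfp638 ran from -0.08 to 0.32 and Zfp385b from -0.37 to 0.15 in control cultures, and Zfp36 ran from -0.74 to 2.15 for PTX in processes. The median Zfp gene had 194 reads in a somata library and 55 in a process library.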

Other observations

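Other zinc finger families, taken by symbol, gave these values for processes against somata in control cultures. Of 33 Zbtb genes, which pair fingers with a BTB domain, 6 were higher and 5 lower (all genes 25.8% and 21.9%), with a median log2 fold change of -0.25, beside -0.25 for the Zfp genes. In PTX cultures 6 were higher and 8 lower (all genes 25.7% and 24%), with a median of -0.09, beside -0.22. Of 7 Zkscan genes 1 was higher and 4 lower, with a median of -0.44, and of 8 Zscan genes 0 were higher and 2 lower, with a median of -0.14. Of 14 Klf genes 3 were higher and 3 lower, with a median of -0.26. The 4 Egr genes, induced by neuronal activity, had a median of -0.38 with 2 lower, and the 5 Zic genes had a median of 0.19 in control cultures and of -0.34 in PTX cultures, with none called in either. The 6 Znf genes had a median of -0.17, with 1 higher and 2 lower. In PTX cultures the medians were -0.24 for Zkscan, -0.23 for Zscan, -0.29 for Klf, -0.35 for Egr and -0.10 for Znf genes. With library size alone as the scaling the median of all genes moves to -1.86, so these directions hold relative to the bulk of genes.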
